A study of Homo sapiens with 14 samples.

Results

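UQCC1 and 9 other genes of respiratory complex III were examined for changes in RNA splicing in SF3B1-mutant cells. The 10 genes are the assembly factors UQCC1, UQCC2, UQCC3, BCS1L, LYRM7 and TTC19 and the subunits UQCRC1, UQCRC2, UQCRB and UQCRFS1. All their splice events with a mean of at least 10 junction reads, averaged over the genotypes, were taken. These were 95 of the 116 events listed for the 10 genes, of the 114349 events in the file, of which 94114 passed the same minimum. UQCC1 was selected on its inclusion levels in this same comparison, so its values are given as a description without a test. The other genes were chosen by function, with earlier results of these data known.

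SF3B1 is the splicing factor that helps recognize the branch point before a 3′ splice site, and K700E is a hotspot mutation of this protein. RNA-Seq was performed in HEK293T, a human embryonic kidney line, with 3 libraries of SF3B1 K700K (WT) cells and 3 of SF3B1 K700E (MT) cells. The lines are isogenic, and the MT line carries the mutation at the endogenous locus. DRIP-seq, which recovers DNA-RNA hybrids (R-loops) with the S9.6 antibody, was performed in isogenic K700K (WT) and K700E (MT) lines of the leukemic B cell line Nalm-6. Each genotype there had 2 untreated libraries and 2 libraries treated with RNase H1 (RNH1). No source states that libraries of one genotype came from separate cultures, so p-values measure the spread between these libraries, which may be technical.

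Complex III of the mitochondrial respiratory chain, the cytochrome bc1 complex, passes electrons from ubiquinol to cytochrome c and moves protons across the inner membrane. Its assembly starts with cytochrome b, the one subunit encoded in mitochondrial DNA, and ends with insertion of the Rieske iron-sulfur protein, UQCRFS1. UQCC1 and UQCC2 act together at the first step and are needed for the synthesis and stability of cytochrome b.

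The UQCC1 events with differences in this comparison lay at exons 6 to 9 of the MANE Select transcript, the reference transcript of the gene. The gene is on the minus strand of chromosome 20 (GRCh38). Exons 6, 7 and 8 are shown whole because reads that join them made up the events, and exon 9 by its first 20 bases because it is the 3′ partner of exon 8. All lie in coding sequence of the MANE Select transcript. Each line runs 5′ to 3′ on the minus strand, with the last 50 bases of the preceding intron in lower case and exon bases in capitals. The spans are chr20:35366557-35366664, chr20:35347164-35347322, chr20:35314688-35314815 and chr20:35306760-35306829.
exon 6: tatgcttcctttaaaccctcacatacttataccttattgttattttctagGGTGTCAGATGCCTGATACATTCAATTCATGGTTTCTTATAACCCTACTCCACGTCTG
exon 7: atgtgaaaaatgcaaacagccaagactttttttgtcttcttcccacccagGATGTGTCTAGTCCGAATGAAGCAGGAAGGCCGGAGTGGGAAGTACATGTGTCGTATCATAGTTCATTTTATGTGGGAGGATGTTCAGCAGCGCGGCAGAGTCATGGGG
exon 8: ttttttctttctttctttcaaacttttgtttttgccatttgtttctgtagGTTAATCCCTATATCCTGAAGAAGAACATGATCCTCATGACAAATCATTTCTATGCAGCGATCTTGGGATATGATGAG
exon 9: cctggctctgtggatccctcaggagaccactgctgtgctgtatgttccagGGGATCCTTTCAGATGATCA

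Each intron ended in AG. Another AG between 10 and 30 bases before that AG, the range in which cryptic 3′ splice sites of SF3B1-mutant cells are known to lie, was present before exon 7 and before exon 9 and absent before exons 6 and 8. Over the whole gene, 6 of 9 MANE Select acceptors of UQCC1 had one, against 42.9% of 181593 acceptors of all MANE Select transcripts. Exon 8 is 78 bases long, a multiple of 3, whereas exons 6 and 7, of 58 and 109 bases, are not.

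In HEK293T cells, 4 UQCC1 events had an inclusion level that differed by more than 0.1 between MT and WT, and all were higher in MT cells. Of all fitted events in the file, 5.82% differed by as much. The inclusion level is the fraction of length-scaled junction reads that belong to one of 2 forms. All 4 were mutually exclusive exon (MXE) events, in which the inclusion form holds the 5′ exon of a pair and the other form the 3′ exon. UQCC1 had 37 events above the read minimum, of which 19 were skipped exons, 15 MXE events and 3 alternative 5′ splice sites, and 0 alternative 3′ splice sites were listed for the gene.

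For exon 7 against exon 8, flanked by exons 6 and 9, the levels were 0.589, 0.530 and 0.638 in WT libraries and 0.951, 0.814 and 0.819 in MT libraries. The mean was 0.861 ± 0.0777 (SD, n = 3) in MT against 0.586 ± 0.0541 (SD, n = 3) in WT cells, a difference of 0.276 (SE 0.0547) at a mean of 136 reads. The genotypes did not overlap, and MT 1 was the highest library. For exon 6 against exon 7, flanked by exons 5 and 8, the levels were 0.529, 0.544 and 0.532 in WT, against 0.933, 0.717 and 0.808 in MT libraries. The difference was 0.284 (SE 0.0628), the largest in the gene, and MT 1 was again the highest. The WT libraries of this event lay within a narrow band, with an SD of 0.00794 against 0.108 in MT libraries.

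The other 2 events used the same exon pairs with exon 4 as the upstream flank. For exon 7 against exon 8 the levels were 0, 0.033 and 0.025 in WT, against 0.380, 0.071 and 0.181 in MT libraries, a difference of 0.191 (SE 0.0910). For exon 6 against exon 7 they were 0.072, 0.037 and 0.032 in WT, against 0.236, 0.105 and 0.236 in MT libraries, a difference of 0.145 (SE 0.0454). Both had few reads of the inclusion form, with authors' means of 1.00 in WT and 3.67 in MT for the first event and 1.33 and 3.67 for the second. Without MT 1 the differences of the 4 events were 0.231, 0.228, 0.107 and 0.124, in the order given.

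**Figure D1:**
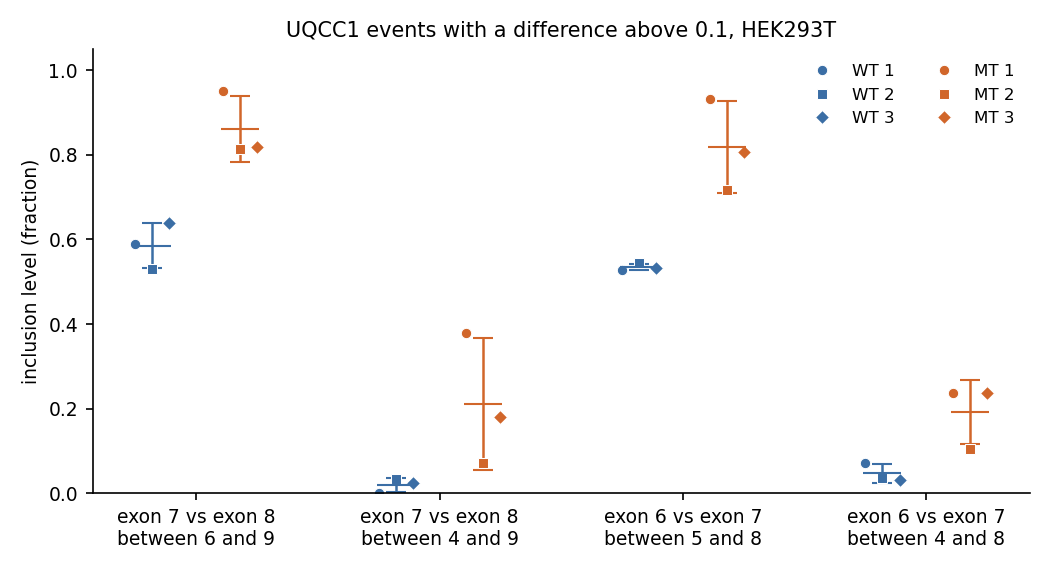
Inclusion level (fraction, vertical axis) of the 4 UQCC1 events with a difference above 0.1, for each of the 3 WT and 3 MT HEK293T libraries, where bars are the mean and SD. In each event all 3 MT libraries lay above all 3 WT libraries, and the MT libraries were more widely spread.

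The 4 events share reads and are not independent of each other. The skipped-exon events at the same exons showed near-constant inclusion. Exon 7 between exons 6 and 8 had a level of 1.000 in all 6 libraries. Exon 8 had levels of 1.000, 1.000 and 0.975 in WT, against 1.000, 1.000 and 0.923 in MT libraries, and exon 6 between exons 5 and 7 had levels of 0.985, 0.983 and 1.000 in WT and 1.000 in each MT library. Reads that skipped exon 8 averaged 0.333 in both genotypes. These levels give only how often an exon was skipped between its neighbours. The level of the first MXE event set reads at exon 7 against reads at exon 8.

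The reads of the single junctions were computed from the authors' mean reads of overlapping events. They differed in opposite directions on the 2 sides of exon 7. Reads joining exon 6 to exon 7 averaged 70.3 in WT and 128.7 in MT cells, 1.83 times as many. Reads joining exon 7 to exon 8 averaged 33.0 in WT and 21.8 in MT cells, a ratio of 0.662. Reads joining exon 8 to exon 9 averaged 46.3 and 25.2, a ratio of 0.543, with those that also reached into exon 7 counted at the exon 7 junction. Thus 7-to-8 reads per 6-to-7 read came to 0.469 in WT and 0.170 in MT cells. A second route through other events gave the same values for both junctions of exon 8. Both routes count the same junction reads, so this checks the arithmetic only and is no independent support. The deposited means carry no spread between libraries, and those of MT cells are over all 6 listed MT values, so no error can be given.

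Reads were higher in MT cells along the upstream part of the gene as well. Of the 37 events, 30 did not use exon 8, and their ratio of MT to WT mean reads ran from 1.22 to 2.03 with a median of 1.64. In 29 of these 30 the ratio was at least 1.5, which 3.66% of all events with at least 10 reads reached, and the median over all of those events was 1.02. The 7 events that used exon 8 had ratios from 0.594 to 1.46. The lowest was that of the skipped-exon event of exon 8, which had 79.3 inclusion reads in WT and 47.0 in MT cells. Overlapping events share reads, so these ratios are not independent. In bulk RNA, fewer cells with a transcript and less of it per cell cannot be told apart.

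**Figure D2:**
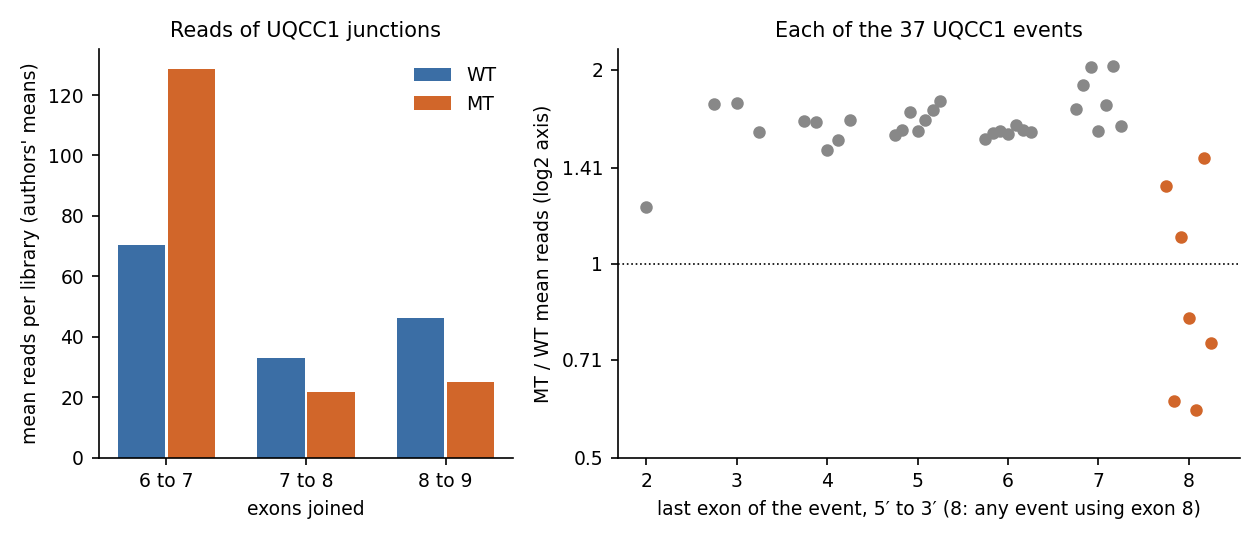
Left, the authors' mean reads per library of the junctions between UQCC1 exons 6 and 7, 7 and 8, and 8 and 9 in WT and MT HEK293T cells, with no error bars because the deposited means have none. Right, the MT to WT ratio of mean reads (log2 axis) of each of the 37 events against the last exon it uses. Events that stop before exon 8 sit above 1.22, while 4 of the 7 events using exon 8 sit below 1.

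The annotation holds other ends for exon 7. In one coding transcript, exon 7 runs on into intron 7 as the last exon, at chr20:35344110-35347272, a length of 3163 bases, and in a transcript marked for nonsense-mediated decay it ends after 526 bases. A further last exon in intron 7 starts at 35346423, and a deposited skipped-exon event joins the donor of exon 7 to it. That event had a mean of 4.17 reads, below the read minimum. Reads joining exon 7 directly to this exon averaged 0 in WT and 6.33 in MT cells. Reads through the 47-base exon between them averaged 0.667 and 1.33, and a level was given for 1 WT library only, so the genotypes cannot be compared by level. With 0 reads in WT, counting error alone allows a mean of up to 1 read per library, and the spread between libraries is not given. The event was chosen after its values were seen, and its difference was not tested. The acceptor of this last exon is shown because MT reads used it, at chr20:35346414-35346443 on the minus strand, with intron bases in lower case.
intron 7 acceptor: ccggagtttcttccttccagTGGGTTCGTG

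The remaining UQCC1 events differed by −0.057 to 0.039. The lower bound belonged to exon 2 against exon 3, flanked by exons 1 and 4, with levels of 0.267, 0.266 and 0.235 in WT, against 0.218, 0.221 and 0.158 in MT libraries, and MT lay below WT without overlap. Exon 5 was included at 0.972, 0.972 and 0.988 in WT, against 0.975, 0.969 and 0.940 in MT libraries. The alternative 5′ splice sites of exon 4 had levels of 0.994 or more in every library. Of the 37 events, 6 had the same level in all 6 libraries and could not be fitted.

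In limma over 83627 events with adjusted p under 0.05 and a difference above 0.1, 1 of the 83 fitted events of the 10 genes was called, the UQCC1 event of exon 7 against exon 8 with flanks 6 and 9. Over all fitted events 0.0311% were called. Since the gene was chosen by this contrast, nothing is read from that call, and it was absent when any one library was left out, with a logit transform, without the variance trend or without the read minimum. All 3 MT levels lay above all 3 WT levels in 4 of the 31 fitted UQCC1 events, and below in 1, against 2.32% and 3.14% of all fitted events, likewise fixed in part by the choice.

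Of the other 9 genes, 7 had events above the read minimum, and UQCC3 and UQCRFS1 had 0 listed events. Their 58 events, 52 of which were fitted, gave 0 calls in limma. At an unadjusted p under 0.05 there were 2, or 0 with the logit transform, and the lowest adjusted p was 0.856. Over all fitted events, 4.48% had an unadjusted p under 0.05 in limma. The median size of the difference was 0.0125 in these 52 events and 0.0137 over all 83627. MT lay wholly above WT in 2 of the 52 and wholly below in 1, against 2.32% and 3.14% of all fitted events.

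**Figure D3:**
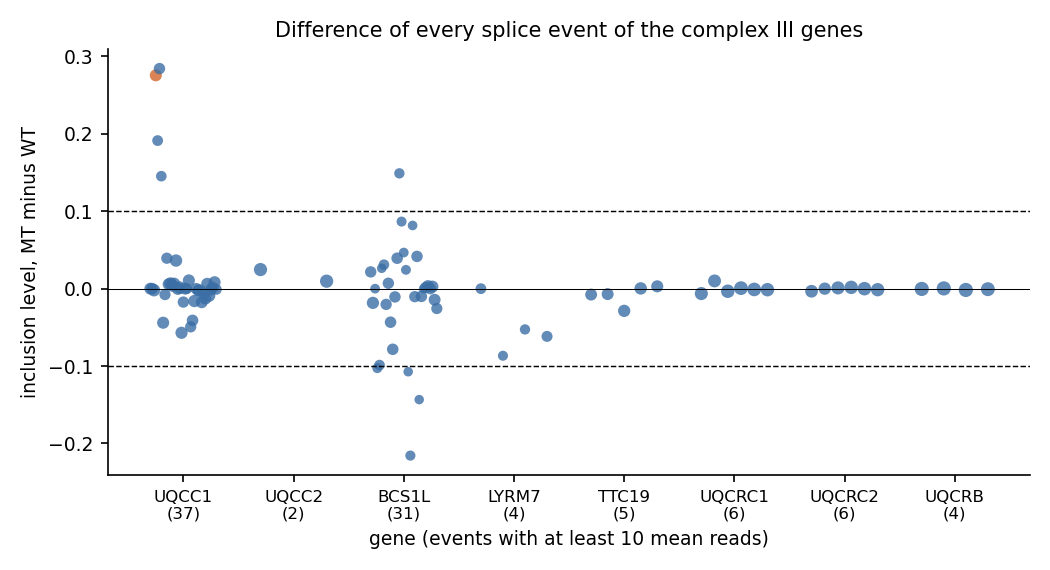
Difference in inclusion level (MT minus WT, vertical axis) of each of the 95 events with at least 10 mean reads, by gene, with larger points for more reads, dashed lines at 0.1 in either direction and the called event in orange. Differences above 0.1 in size occurred in UQCC1 (4 events) and BCS1L (5 events).

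Among the assembly factors, BCS1L, the ATPase that moves the Rieske protein across the inner membrane, had the most events after UQCC1, with 31. Of the 28 fitted, 5 differed by more than 0.1, against 5.82% of all fitted events. The largest was an exon of 115 bases between exons 1 and 2 of the MANE Select transcript, at chr2:218660307-218660421. Its levels were 1.000, 0.655 and 1.000 in WT, against 0.818, 0.590 and 0.60 in MT libraries. The difference of −0.216 (SE 0.137) rested on a mean of 20.8 reads, the genotypes overlapped, and the adjusted p of limma was 0.856. The other 4 BCS1L differences ran from −0.143 to 0.149 and had adjusted p-values of 0.856 in limma. They rested on 11.7 to 24.6 mean reads, against a median of 82.3 over all fitted events. Among them was a further event of the same 115-base exon. BCS1L exon 2, between exons 1 and 3, had levels of 0.918, 0.955 and 0.931 in WT, against 0.973, 0.956 and 1.000 in MT libraries, without overlap, and an adjusted p of 0.856 in limma. The other fitted skipped-exon events of exon 2 differed by −0.143, −0.0103, −0.010 and 0.00167, so a higher level in MT was not shared by them.

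UQCC2, the partner of UQCC1, had 2 events, both with means of over 479 reads. The levels of exon 3 were 0.987, 0.988 and 0.992 in WT, against 1.000, 0.996 and 1.000 in MT libraries, a difference of 0.00967 (limma, unadjusted p = 0.0129, adjusted p = 0.856). The MXE event of exons 2 and 3 had levels of 0.502, 0.463 and 0.441 in WT, against 0.505, 0.505 and 0.470 in MT libraries, a difference of 0.0247. The values of the genotypes overlapped in the second event and not in the first.

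LYRM7, which binds the Rieske protein before its insertion, had 4 events with 19.1 to 47.0 mean reads. The largest difference was that of exon 3 between exons 2 and 5, with a level of 1.000 in every library except MT 3, at 0.740. The difference of −0.0867 thus came from 1 library. TTC19, which helps clear fragments of the Rieske protein, had 5 events, and the largest difference was −0.0287 for retention of its last intron. Its levels were 0.141, 0.117 and 0.185 in WT, against 0.108, 0.092 and 0.157 in MT libraries, and they overlapped.

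The subunits differed little between the genotypes. UQCRC1 and UQCRC2, the core proteins, had 6 events each. The largest difference was 0.010 for retention of the intron between exons 8 and 9 of UQCRC1, with levels of 0.020, 0.032 and 0.065 in WT, against 0.022, 0.044 and 0.081 in MT libraries. The genotypes overlapped, and the difference was −0.006 without MT 3. A longer form of UQCRC1 exon 4 had levels of 0.012, 0.007 and 0.014 in WT, against 0.005, 0.004 and 0.005 in MT libraries, and these did not overlap (limma, adjusted p = 0.856). In UQCRC2 no difference exceeded 0.00333 in size, and the event with that value changed sign without WT 3. In UQCRB, the subunit beside the ubiquinone site, none exceeded 0.00167 at 1143 to 1645.7 mean reads. Mean reads of UQCRC1 events were lower in MT cells, with ratios from 0.667 to 0.813, and those of UQCC2 were 0.788 and 0.821, whereas UQCRB ran from 0.997 to 1.03 and UQCRC2 from 0.903 to 1.03.

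Other genes of the complex and its assembly were listed for their function. Of 13 such proteins, 8 had fitted events. None of their 27 events was called in limma, 2 had an unadjusted p under 0.05, and the median size of the difference was 0.00467. Over all fitted events, 0.0311% were called, 4.48% had such an unadjusted p, and the median size was 0.0137. Differences above 0.1 were found in 3 events, against 5.82% of all fitted events. An alternative 5′ splice site of UQCRH, the hinge subunit, had levels of 0.923, 0.615 and 0.838 in WT, against 1.000, 1.000 and 0.873 in MT libraries at 19.8 mean reads, and its reads are uncertain because UQCRHL is a near-identical copy. A pair of overlapping events of C12orf73 (UQCC6), an assembly factor, differed by 0.116 and 0.108 at 42.6 and 22.8 mean reads. CYC1, UQCRQ, UQCR11, HCCS, CYCS and COX7A2L had no difference above 0.0117 in size.

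The events whose levels ran most like the UQCC1 event of exon 6 against exon 7 over the 6 libraries were found among 56183 fitted events with at least 50 mean reads. Pearson's r was highest for an event of NSMF (0.998), then FLII (0.997), CSNK1E (0.991), FAM169A (0.990) and PTPRF (0.990). Their differences were small, from 0.0173 for PTPRF to 0.0593 for FLII, against 0.284 for UQCC1. In each, MT 1 was the highest library and MT 2 the lowest of the MT libraries, as in UQCC1, an order that selection for so high an r largely fixes. With 6 points in 2 genotypes, and with 204 events at r above 0.9, this is a description of these libraries.

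DRIP-seq addressed whether R-loops over the same genes differed between the genotypes in Nalm-6 cells. Bona fide peaks were untreated peaks without a shared base in the RNH1 library that had their genotype and number. The RNH1 libraries held 34952 and 77550 peaks in WT, against 201804 and 198837 in MT. Subtraction therefore removed a larger part of the MT peaks, and bona fide counts are not on an equal footing between genotypes. Peaks over the gene or the 3 kb before its start were counted. Over the 10 genes, WT 1 held 7 of 101372 bona fide peaks, WT 2 held 9 of 86247, MT 1 held 23 of 124689 and MT 2 held 20 of 151753. As shares this was 0.00691% and 0.0104% for WT, then 0.0184% and 0.0132% for MT. The log2 difference of the share was 0.88 (SD 0.54), and neither MT value fell into the WT range (two-sided exact permutation test, n = 2, p = 0.333, the smallest that 2 against 2 can give).

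UQCC1 held much of that excess. In the order WT 1, WT 2, MT 1 and MT 2, it had 1, 3, 11 and 7 bona fide peaks, and 2, 4, 17 and 13 peaks before subtraction. The RNH1 libraries in the same order had 1, 1, 9 and 7 peaks over it. Without the peaks over UQCC1, an alternative chosen after seeing the data, the shares in that order were 0.00592%, 0.00696%, 0.00962% and 0.00857%. The log2 difference was then 0.50, with the same p of 0.333 by the exact test. With peaks of a fold enrichment of at least 4 the log2 ratio was 0.11 (exact permutation p = 1.0), and MT 2 lay below both WT libraries. Without WT 1 it was 0.58 over all bona fide peaks.

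Both MT libraries had more bona fide peaks than both WT libraries over 3 of the 10 genes, UQCC1, UQCRC2 and UQCRFS1, against 26.2% of 20007 protein-coding genes. The reverse held in 0 of the 10, against 5.26%. Before subtraction it was 4 of the 10, with LYRM7 as the fourth, against 48.7%, and the reverse in 0, against 2.12%. These shares were close to the background, and the MT libraries held more peaks in all. Among 697 genes of 100000 to 120000 bases, the length range of UQCC1, both MT libraries had more untreated peaks than both WT libraries in 85.4% and more bona fide peaks in 45.1%. Their medians in WT 1, WT 2, MT 1 and MT 2 were 4, 5, 10 and 11 untreated peaks and 3, 3, 5 and 6 bona fide peaks.

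**Figure D4:**
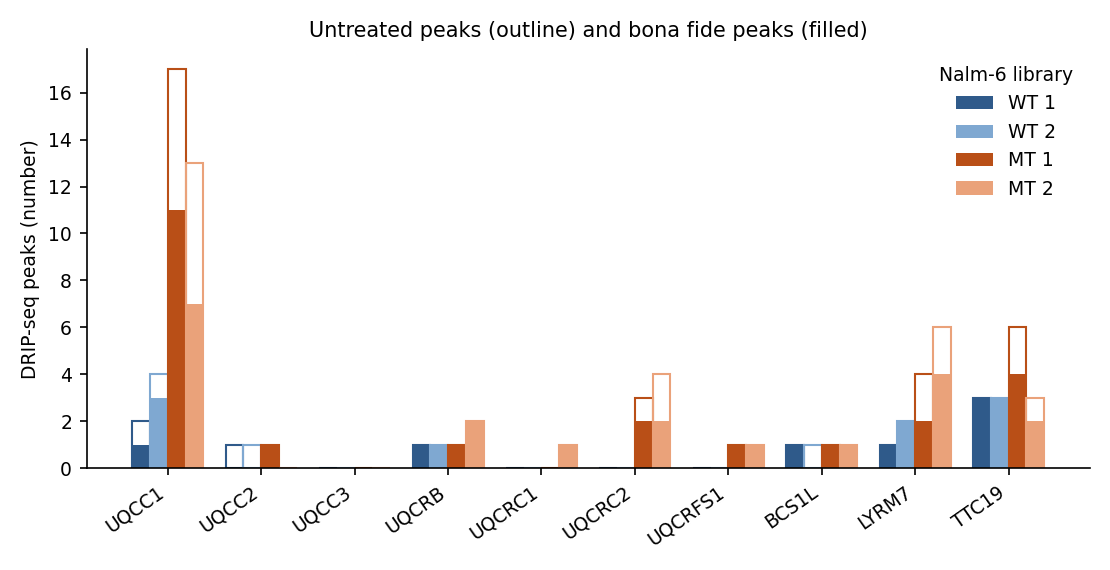
Number of DRIP-seq peaks (vertical axis) over each gene and the 3 kb before its start in each of the 4 untreated Nalm-6 libraries, with all peaks in outline and bona fide peaks filled. UQCC1, the longest of the 10 genes, reached 17 and 13 untreated peaks in MT libraries against 2 and 4 in WT libraries, where genes of its length had medians of 10 and 11 against 4 and 5.

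The peaks of the other genes were few. UQCRFS1, the Rieske protein, had 0 peaks in WT and 1 in each MT library, at chr19:29215920-29216249 and chr19:29215920-29216188, before its start, with fold enrichments of 6.87 and 6.73. UQCRC2 had 0 bona fide peaks in both WT and 2 in each MT library. In the order above, LYRM7 had 1, 2, 2 and 4 and TTC19 had 3, 3, 4 and 2. UQCRB had 1 peak in each library except MT 2, with 2. BCS1L, UQCC2 and UQCRC1 had at most 1 bona fide peak in any library, and UQCC3 had 0.

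Within UQCC1, the peaks were compared with the exons of the splice events. Exon 8 was covered by an untreated peak in both MT libraries, at chr20:35314087-35314956 and chr20:35314252-35314961 with fold enrichments of 5.42 and 5.52, and by none in WT libraries. An RNH1 peak covered exon 8 in both MT libraries as well, with fold enrichments of 4.89 and 5.61, so neither peak was bona fide. Exons 6, 7 and 9 had no peak in any library. The long form of exon 7 in intron 7 overlapped 2 bona fide peaks in MT 1 and 1 in MT 2, of which 1 in each library started at 35344345. It overlapped 0 peaks in WT and 0 in RNH1 libraries. Both MT libraries also had bona fide peaks at shared places in other introns, such as that starting at 35360719. A peak at the same place in both WT libraries, chr20:35392570-35393276 in intron 2, had fold enrichments of 8.58 and 9.27, was absent in MT libraries and remained after RNH1 treatment.

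**Figure D5:**
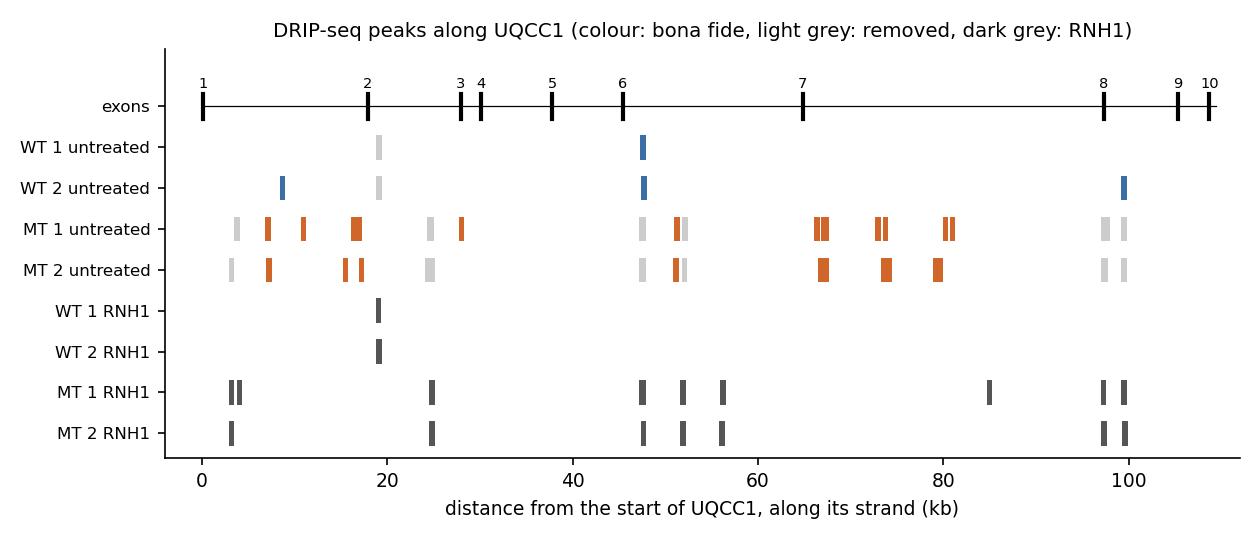
DRIP-seq peaks along UQCC1 in the 8 Nalm-6 libraries by distance from the gene start (kb), with numbered MANE Select exons on top, peaks drawn at least 0.6 kb wide, bona fide peaks in blue (WT) or orange (MT), removed peaks in light grey and RNH1 peaks in dark grey. Bona fide peaks in intron 7 and in introns nearer the gene start appear in both MT libraries, while the peaks over exon 8 are grey because RNH1 libraries share them.

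The deposited RNA-Seq levels are from HEK293T cells and the peaks from Nalm-6 cells, so the 2 assays cannot be compared sample by sample. LYRM7, TTC19, BCS1L, UQCC2 and UQCRB overlap a gene on the opposite strand in the annotation. The RNA-Seq kit keeps the strand, and whether the counting used it is not given in the sources used here. The events nearest the read minimum were a BCS1L event with 11.6 mean reads, inside, and a LYRM7 event with 9.83, outside.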

How the data were processed

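The splice table was made with the rMATS model, per Methods, and labels name STAR, StringTie and BWA with GRCh38 (hg38). The authors' inclusion level is a deposited fraction per library, and mean junction reads per form and genotype are the authors' means. The table lists 6 MT values per event but gives 3 a column (the first, second and sixth), which were used as MT 1 to MT 3. Whether these are the 3 MT samples is open. The remaining 6 columns of per-library lists were not used, and the authors' p-values and differences entered nothing. A mean of at least 10 reads was required. Levels were compared in R 4.3.3 by limma 3.58.1 after an arcsine square-root transform, with a variance trend on mean reads and Benjamini-Hochberg adjustment over 83627 events. On simulated levels, limma called 48 of 100 planted differences of 0.3, 100 of 100 of 0.5, and 0 of 83427 unchanged events. The planted differences were at events with at least 50 mean reads and intermediate WT levels, with the same assumed spread for every library. The counts hold for that spread only. Planted differences from WT levels near either end, and a wider spread in MT libraries, were not simulated. The absence of a call therefore does not exclude a difference, above all at fewer reads. For DRIP-seq, the authors aligned to GRCh38 and called peaks per library with MACS2, and the deposited fold enrichment is a ratio over local background. Depth in reads is unknown for the peak lists. Chromosomes 1 to 22, X and Y entered. Exons are from GENCODE (GRCh38), and sequence is from hg38. Members and gene lists were chosen with earlier results of these data known. Named were all 10 genes, UQCC1 events above 0.1 or called, the largest difference of each other gene, called events of the 13 listed proteins, and the 5 genes with the highest r. Events named beyond this rule, among them non-overlapping levels and the intron 7 event, were chosen after their values were seen. Alternatives were a logit transform, read minimums, no trend, each library left out, medians, and, for peaks, other subtraction, strength and gene regions.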

Additional observations from a re-analysis of the deposited data

How the results depend on the processing

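The count of called events of the 10 genes was 1, and 0 with the logit transform, 0 without a read minimum, 0 without the variance trend and 0 to 0 when each library was left out. It was 1 with a minimum of 20 reads. The whole-table count was 26, and 0, 22 and 0 under the first 3 of these and 3 to 13 when libraries were left out. The cause was not tested. In each of the 4 UQCC1 events all 3 MT levels lay above all 3 WT levels. Leaving out a library or taking medians therefore could not change the sign of the difference, only its size. The leave-one-out ranges were 0.231 to 0.302 and 0.228 to 0.336 for the first 2 events, and 0.107 to 0.261 and 0.124 to 0.189 for those flanked by exon 4. Among the largest differences of the other genes, leaving out a library gave −0.331 to −0.158 for BCS1L, −0.13 to −0.0867 for LYRM7, −0.0477 to −0.010 for TTC19, 0.0108 to 0.0413 for UQCC2, −0.00233 to −0.000833 for UQCRB, −0.006 to 0.0235 for UQCRC1 and −0.00583 to 0.000167 for UQCRC2, so the last 2 changed sign. LYRM7 could not be fitted without MT 3. The log2 ratio of DRIP-seq shares stayed above 0 in all alternatives, at 0.54 without subtraction, 0.92 with removal only where RNH1 peaks covered most of a peak, 0.81 over gene bodies, 0.11 with fold enrichment of at least 4, and 0.58 to 1.18 with 1 library left out. With the replicate number as a block it was 0.88. The deviations of same-numbered untreated WT and MT libraries had a correlation of −0.0177 over 14840 genes. With 2 libraries per genotype this cannot settle whether WT and MT libraries of the same number belong together. It does not bear on the matching of untreated and RNH1 libraries by number. No paired analysis was possible for RNA-Seq because the MT columns carry no replicate numbers of the samples. The depth of the peak lists and the spread of the mean reads are unknown, which limits both. The fits could not be made for events with equal levels in all libraries.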
